A study of Mus musculus with 3 samples.

Results

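Respiratory complex I is the entry point of electrons from NADH into the mitochondrial respiratory chain, and its nuclear genes were followed here in donor T cells of mice given cyclosporine A (CSA), a calcineurin inhibitor. The members were all genes of the count table whose symbol begins with Nduf, without those marked as pseudogenes, which gave 45 of 18029 genes. Of these, 37 coded for subunits and 8, named Ndufaf, for assembly factors. All 45 passed the filter on low counts in both CD4+ and CD8+ T cells.

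The finished complex has an arm in the mitochondrial matrix, which takes electrons from NADH and hands them to ubiquinone through iron-sulfur clusters, and an arm in the inner membrane, which pumps protons. The core subunits of the matrix arm are encoded in the nucleus, those of the membrane arm in mitochondrial DNA, and many nuclear accessory subunits surround both. Assembly factors help to build the complex and are not part of the finished enzyme. Activated T cells use the respiratory chain together with glycolysis while they grow and divide. By role, the members were 7 core subunits, 9 accessory subunits of the matrix (peripheral) arm, 20 accessory subunits of the membrane arm, Ndufa4, which is now counted with complex IV, and the 8 assembly factors.

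B6D2F1 mice were irradiated and transplanted with B6 bone marrow and B6 T cells, with a small number of TEa cells, which carry a transgenic T cell receptor for an alloantigen, and all groups shared this transplant. Each day from day 0 to day 6 they received saline or CSA, the latter at 5 mg/kg (low dose) or 50 mg/kg (high dose), and on day 7 the CD4+ and the CD8+ T cells of the donor were sorted from their spleens. The 6 mice of a group gave 3 pools of 2 mice, told apart by hashtag antibodies, and the 9 pools were the replicates. Each group was loaded as 1 droplet capture, so that a capture and its treatment cannot be told apart, and the p-values below measure the spread between pools within captures.

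Unique molecular identifiers (UMIs) were counted in 21204 cells, of which 218 cell barcodes occurred in more than 1 capture. The 280 CD4+ cells marked TEa were left out, and a pool then held 875 to 1479 CD4+ cells with 3994968 to 7592334 UMIs, and 692 to 1615 CD8+ cells with 4392100 to 11454636 UMIs. The median number of UMIs per cell was higher at each dose, from 2966 to 3173.5 in saline pools to 5794.5 to 6300 at the high dose for CD4+ cells, and from 4026 to 4254 to 6656 to 8065 for CD8+ cells. The T cell markers Cd3e, Cd3d and Cd3g were high in all sums. Cd8a was at 0 in every CD4+ pool and Cd4 at 0 in every CD8+ pool, but how cells were assigned to a lineage is not given in the sources used here, and zeros in all cells are also what an assignment by these transcripts would leave, so they are no check of purity. Cd8b1, the other CD8 chain, was at 20.8 to 153 CPM (UMIs per 1000000 UMIs) in CD4+ pools and 1265 to 2856 CPM in CD8+ pools. The summed B cell list of 6 genes was 160 to 170 CPM in CD8+ saline pools and 545 to 672 CPM at the high dose, of which Jchain, the joining chain of secreted antibodies, made up 0.907 to 4.86 CPM with saline and 182 to 316 CPM at the high dose, and Ighm 134 to 149 against 313 to 345 CPM. Ms4a1 and Cd79a, of the same list, were at most 0.455 and 1.22 CPM in any CD8+ pool. Cd79b, also of that list, was at 19.0 to 21.6 CPM in CD8+ saline pools and 16.7 to 17.5 CPM at the high dose. The summed cycling list of 8 genes was 3734 to 3953 CPM in CD8+ saline pools against 1981 to 2309 CPM at the high dose, and 2424 to 2608 against 2002 to 2176 CPM in CD4+ pools. The median share of mitochondrial UMIs per cell was 1.81% to 1.83% in CD8+ saline pools and 1.56% to 1.66% at the high dose, and 1.65% to 1.74% against 1.60% to 1.73% in CD4+ pools. The part of these shifts in the results below was not tested, beyond the values outside the cycling clusters. In sums over a pool, fewer cells of a type and less RNA per cell cannot be told apart.

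To ask whether CSA was accompanied by a change in complex I genes in CD4+ T cells, UMIs were summed per pool and tested with edgeR across all 10568 genes that passed the filter, with TMM scaling, which sets the typical gene to no change. At the high dose, 36 of the 37 subunits rose and 0 fell, where 34.7% of all genes tested were called higher and 35.8% lower. DESeq2 also gave 36 higher and 0 lower, and at an unadjusted p under 0.05 edgeR also had 0 lower. At the low dose, 36 subunits rose and 1 fell, with 26.1% of all genes called higher and 25.6% lower. The median log2 change of the subunits was 0.73 at the low dose and 0.95 at the high dose, beside medians of -0.01 and -0.01 over all genes. Under scaling by library size alone, the median of all genes moved to -0.37 and -0.45, and 33 subunits were higher with 1 lower at the low dose, and 34 higher with 1 lower at the high dose. With that scaling 8.76% of all genes were called higher and 54.1% lower at the low dose, and 15.1% and 59% at the high dose.

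**Figure D1:**
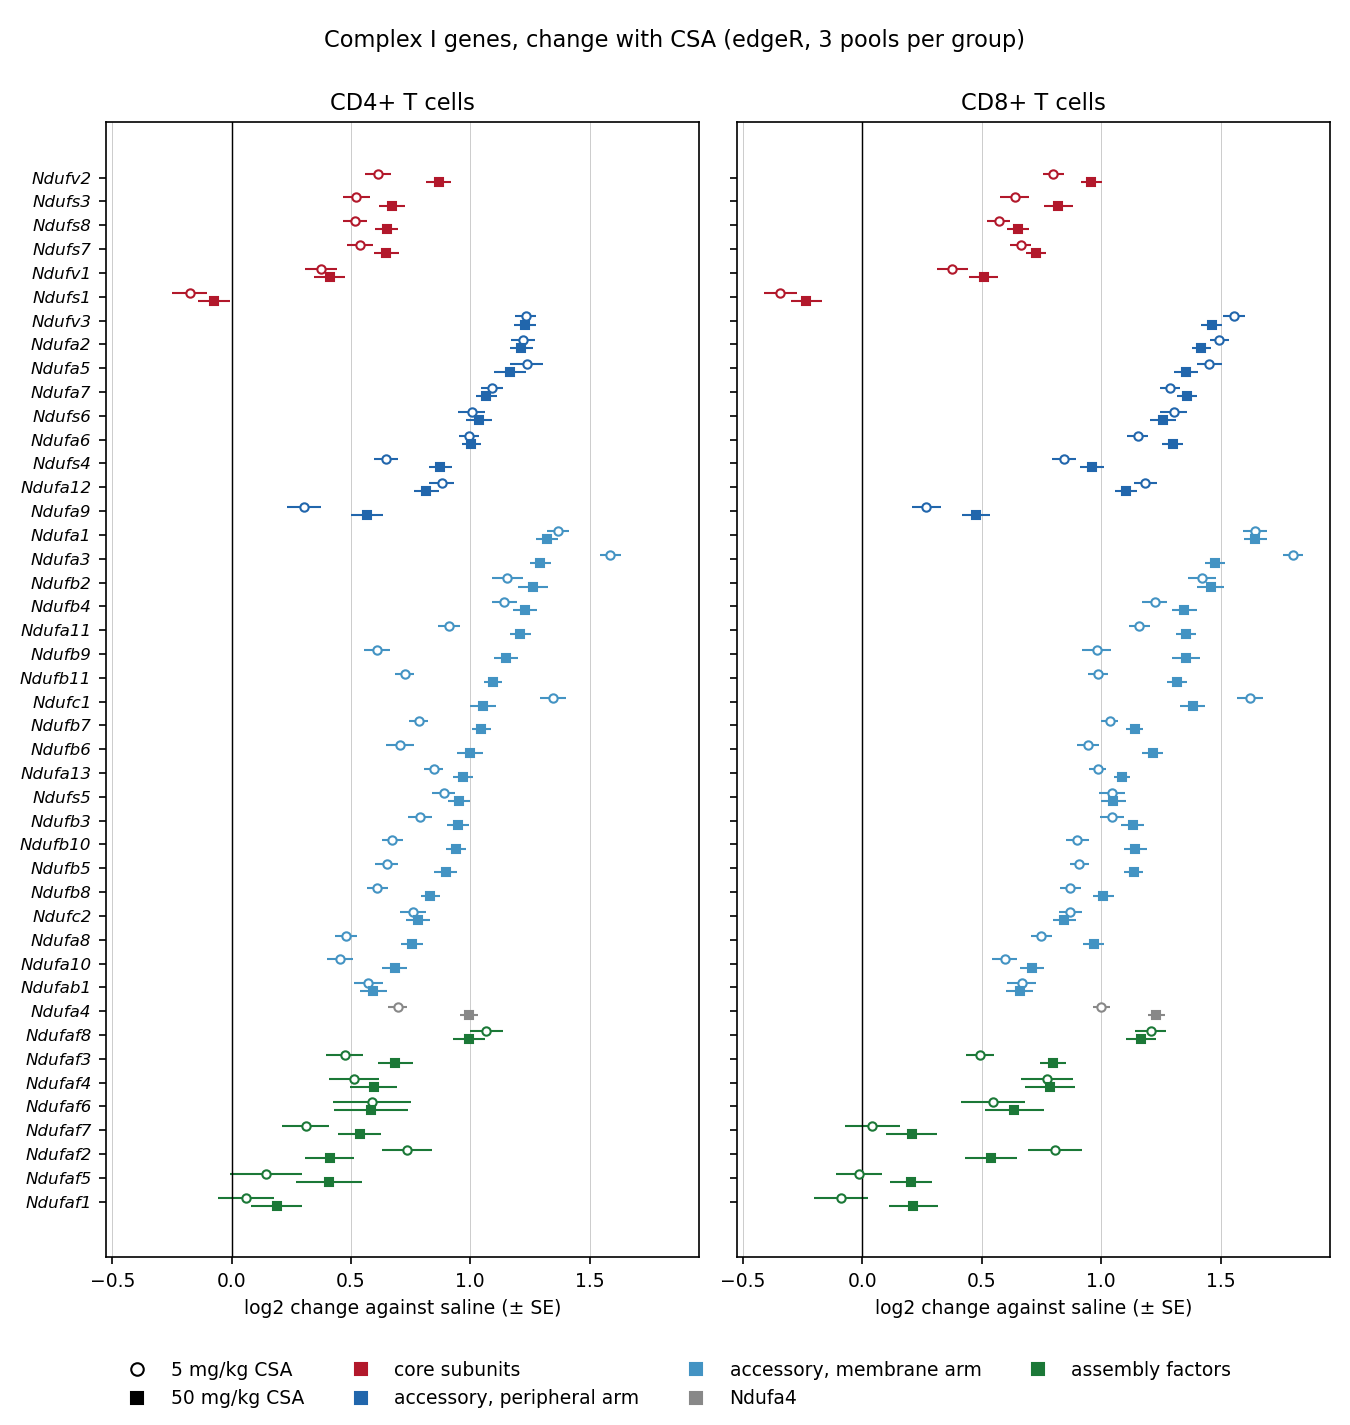
Each row is a complex I gene, and the x axis gives its log2 change against saline with its standard error from edgeR, as open circles for 5 mg/kg and filled squares for 50 mg/kg, in CD4+ (left) and CD8+ (right) T cells with 3 pools per group. All subunits drawn but Ndufs1 lie to the right of 0 at both doses in both lineages, and the core subunits lie nearer to 0 than most accessory subunits.

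Large rises were found among accessory subunits. Ndufa1, a small accessory subunit of the membrane arm, had TMM-normalized levels of 111, 114 and 103 CPM in the saline pools of CD4+ T cells, 276, 289 and 283 CPM at the low dose and 272, 279 and 269 CPM at the high dose. Every treated pool was far above every saline pool, and the doses overlapped each other. Its log2 change was 1.37 ± 0.05 (SE) at the low dose (adjusted p = 8.8e-16) and 1.32 ± 0.05 at the high dose (adjusted p = 5.9e-16, edgeR). The gene lies on chromosome X at 37187588 to 37191163 (minus strand, GRCm38). Ndufa3, another accessory subunit of the membrane arm (chromosome 7, 3617373 to 3620327, plus strand), was at 128, 136 and 128 CPM in saline pools, 389.6, 395 and 396 CPM at the low dose and 333, 321 and 309.8 CPM at the high dose. Here the 3 groups did not overlap, and the low dose had the higher level. Its log2 change was 1.59 ± 0.04 at the low dose (edgeR adjusted p = 2.9e-17) and 1.29 ± 0.04 at the high dose (adjusted p = 3.6e-16). Ndufv3, an accessory subunit of the NADH-oxidizing part of the matrix arm (chromosome 17, 31520115 to 31531331, plus strand), was at 153, 143 and 154 CPM in saline pools, 338, 351 and 365 CPM at the low dose and 348, 344 and 362 CPM at the high dose, a log2 change of 1.23 at each dose.

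The remaining members with the largest changes in CD4+ T cells were Ndufb2 and Ndufb4 at the high dose and Ndufc1 and Ndufa5 at the low dose, all accessory subunits. Ndufb2 was 57.6, 51.9 and 52.5 CPM in saline pools and 132, 124 and 131 CPM at the high dose, and its saline and treated pools did not overlap. Ndufb4 rose by 1.23 at that dose. At the low dose, the log2 changes of Ndufc1 and Ndufa5 were 1.35 and 1.24. The mean level of Ndufa5 was 55.1 CPM with saline and 129 CPM at the low dose.

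The core subunits, which carry the flavin and the iron-sulfur clusters, changed less. Their median log2 change at the high dose was 0.65, against 1.04 for the accessory subunits of the matrix arm and 0.98 for those of the membrane arm, and the difference between classes was not tested. Ndufv1, the flavin-binding subunit that oxidizes NADH, rose by 0.38 ± 0.07 at the low dose and by 0.41 ± 0.06 at the high dose. Its saline pools were at 71.2, 68.4 and 75.7 CPM and its high-dose pools at 89.4, 96.5 and 100.3 CPM. This direction depended on the scaling, since the change of Ndufv1 at the high dose was -0.03 by library size alone. Ndufv2, its iron-sulfur partner, rose by 0.87 at the high dose, the largest change of a core subunit. Among the subunits that lead toward the ubiquinone site, Ndufs3, Ndufs7 and Ndufs8 rose by 0.67, 0.65 and 0.65.

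Ndufs1 stood apart from the other 36 subunits. It is the largest core subunit, carries several iron-sulfur clusters of the matrix arm, and lies on chromosome 1 at 63143596 to 63176833 (minus strand), where it shares bases with Eef1b2 on the opposite strand. In CD4+ T cells it was at 53.8, 55.2 and 54.3 CPM with saline, 45.2, 51.7 and 47.6 CPM at the low dose and 49.6, 52.7 and 52.9 CPM at the high dose. The saline pools lay above all treated pools. The fall was -0.18 ± 0.07 at the low dose (adjusted p = 0.046), and the value at the high dose was -0.07 ± 0.07 (adjusted p = 0.34, edgeR). By library size alone these values were -0.54 and -0.51, and both passed, beside medians of -0.37 and -0.45 over all genes. These sums rested on 985, 675 and 958 UMIs in the saline, 5 mg/kg and 50 mg/kg groups.

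Of the 8 assembly factors, 6 were higher in CD4+ T cells at the low dose and 7 at the high dose. Over all genes, 26.1% and 34.7% were called higher at these doses. The median log2 changes of the assembly factors were 0.49 and 0.56. Ndufaf8, which works with Ndufaf5 in building the matrix arm (chromosome 11, 120098928 to 120100705, plus strand), changed most. It was at 42.9, 39.6 and 38.0 CPM with saline, 84.7, 80.2 and 86.2 CPM at the low dose and 82.3, 78.3 and 78.7 CPM at the high dose, and rose by 1.07 and 0.99. Ndufaf3 and Ndufaf4, which act together on the part of the complex that binds ubiquinone, rose by 0.69 and 0.59 at the high dose. Ndufaf2 and Ndufaf6 rose by 0.41 and 0.58, and Ndufaf7, an arginine methyltransferase, rose by 0.54. Ndufaf5, which hydroxylates an arginine of Ndufs7, had a change of 0.15 ± 0.15 at the low dose and rose by 0.41 ± 0.14 at the high dose. Ndufaf1, a factor for the membrane arm, passed at neither dose, with 0.06 ± 0.12 and 0.19 ± 0.11. By library size alone, 2 assembly factors were higher and 1 lower at each dose. With that scaling 8.76% and 15.1% of all genes were called higher and 54.1% and 59% lower. The changes of Ndufaf1, Ndufaf2 and Ndufaf5 at the high dose turned to -0.25, -0.03 and -0.03 by library size. Assembly factor counts were low, with as few as 170 UMIs for Ndufaf6 over the saline pools.

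The direct comparison of both doses in CD4+ T cells called 19 subunits higher and 2 lower at the high than at the low dose, where 19.9% of all genes were called higher and 21.3% lower. Ndufb9, an accessory subunit of the membrane arm, had the largest difference, 0.54 ± 0.05 (adjusted p = 1.9e-08, edgeR). It was at 94.7, 95.7 and 99.98 CPM with saline, 138, 154 and 151 CPM at the low dose and 218, 209.6 and 217 CPM at the high dose, so that the 3 groups formed 3 separate levels. Ndufa3 and Ndufc1 were the 2 lower subunits, each by -0.29. Of the 8 assembly factors, 1 was higher and 1 lower. The lower one was Ndufaf2, at -0.32 ± 0.10 (adjusted p = 0.013, edgeR). In cells of 4000 to 8000 UMIs, 8 subunits were called higher in place of 19, and the cause was not tested.

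In CD8+ T cells, 36 of 37 subunits rose and 1 fell at each dose, where 29.9% of 10841 genes were called higher and 30.3% lower at the low dose, and 37.1% and 36.9% at the high dose. The median log2 change of the subunits was 0.98 at the low dose and 1.14 at the high dose, beside 0.00 over all genes at either dose. By library size alone the median of all genes moved to -0.43 and -0.53, and 34 subunits were higher and 2 lower at the low dose, and 33 higher and 1 lower at the high dose, where 10.9% and 15.6% of all genes were called higher and 57.8% and 62.7% lower. The order of the classes was the same as in CD4+ T cells, with medians at the high dose of 0.71 for the core subunits, 1.30 for the accessory subunits of the matrix arm and 1.14 for those of the membrane arm.

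Ndufa1 and Ndufa3 again had large changes. Ndufa1 was at 94.4, 101 and 105 CPM in CD8+ saline pools, 319.8, 309.96 and 312 CPM at the low dose and 309, 301 and 331 CPM at the high dose, a log2 change of 1.65 ± 0.05 at both doses. Ndufa3 was at 113, 109.98 and 113 CPM with saline, 396, 391 and 385 CPM at the low dose and 318, 314 and 302 CPM at the high dose. As in CD4+ T cells, its level was higher at the low dose, with log2 changes of 1.80 and 1.48. Ndufv3 rose by 1.56 and 1.46, Ndufa2, an accessory subunit of the matrix arm, by 1.42 at the high dose, and Ndufc1 by 1.62 and 1.38. Ndufb2 was at 49.5, 48.4 and 52.4 CPM with saline and 147, 132 and 135 CPM at the high dose, a rise of 1.46.

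Ndufs1 fell at both doses in CD8+ T cells. Its levels were 60.7, 62.8 and 58.4 CPM with saline, 44.6, 45.1 and 52.1 CPM at the low dose and 53.3, 52.4 and 49.3 CPM at the high dose. Both treated groups lay below the saline pools and overlapped each other. The changes were -0.34 ± 0.07 (adjusted p = 0.00031) and -0.23 ± 0.06 (adjusted p = 0.0032, edgeR). The other 6 core subunits rose at the high dose, from 0.51 for Ndufv1 (0.38 at the low dose) to 0.96 for Ndufv2, with 0.82 for Ndufs3, 0.73 for Ndufs7 and 0.65 for Ndufs8. By library size alone, Ndufv1 turned to -0.05 and -0.02, and Ndufs1 was at -0.77 at both doses.

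Among the assembly factors, 5 rose at the low dose and 6 at the high dose in CD8+ T cells, and 0 fell. Over all genes, 29.9% and 37.1% were called higher at these doses. By library size alone 3 assembly factors were higher and 3 lower at each dose. With that scaling 10.9% and 15.6% of all genes were called higher and 57.8% and 62.7% lower. Ndufaf8 was at 36.5, 33.5 and 33.9 CPM with saline, 85.6, 78.0 and 77.1 CPM at the low dose and 81.1, 75.0 and 76.7 CPM at the high dose, and rose by 1.21 and 1.17. At the high dose, Ndufaf3, Ndufaf4, Ndufaf6 and Ndufaf2 rose by 0.80, 0.79, 0.64 and 0.54. Ndufaf5 was at 17.9, 19.7 and 17.8 CPM with saline and 21.1, 21.8 and 21.1 CPM at the high dose, a rise of 0.20 ± 0.09, with -0.01 ± 0.10 at the low dose. Ndufaf1 and Ndufaf7 passed at neither dose, with 0.21 ± 0.10 and 0.21 ± 0.11 at the high dose. The rise of Ndufaf5 at the high dose turned to -0.08 outside the cycling clusters and to -0.33 by library size alone, where Ndufaf1 and Ndufaf7 were at -0.32 and -0.32.

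Between doses in CD8+ T cells, 15 subunits were higher and 2 lower at the high than at the low dose, with 20% of all genes called higher and 21% lower. Ndufb9 was again the largest, at 0.37 ± 0.06, with 187, 178 and 179.97 CPM at the low dose and 219, 229 and 257 CPM at the high dose. Ndufa3 and Ndufc1 were again the 2 lower subunits, by -0.33 and -0.24. Of the assembly factors, 2 were higher and 0 lower. With scaling by library size alone, 7 subunits were higher and 8 lower, and 12.1% of all genes were called higher and 30.6% lower.

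The summed level of all subunits showed the size of the shift. In TMM-normalized CPM it was 4836 ± 5.35 (SD, n = 3 pools) in CD4+ saline pools, 8600.4 ± 212 at the low dose and 9428 ± 56.8 at the high dose. In CD8+ pools it was 4695 ± 68.9, 9585 ± 128 and 10241 ± 209. As a share of all UMIs, without TMM scaling, the subunits made up 5814, 8066 and 8362 CPM in CD4+ T cells, a fold of 1.39 at the low dose and 1.44 at the high dose, and the folds in CD8+ T cells were 1.52 and 1.51. Per cell, 21.5, 40.5 and 57.0 subunit UMIs were counted in CD4+ T cells, and 28.1, 61.9 and 71.0 in CD8+ T cells. The saline and treated pools did not overlap on any of these scales. The UMIs per cell also follow the total UMIs per cell, whose median was higher at each dose. The summed assembly factors were 186 ± 5.12, 278 ± 9.51 and 289 ± 8.24 TMM-normalized CPM in CD4+ pools and 176 ± 1.41, 266 ± 11.1 and 283 ± 4.84 in CD8+ pools.

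**Figure D2:**
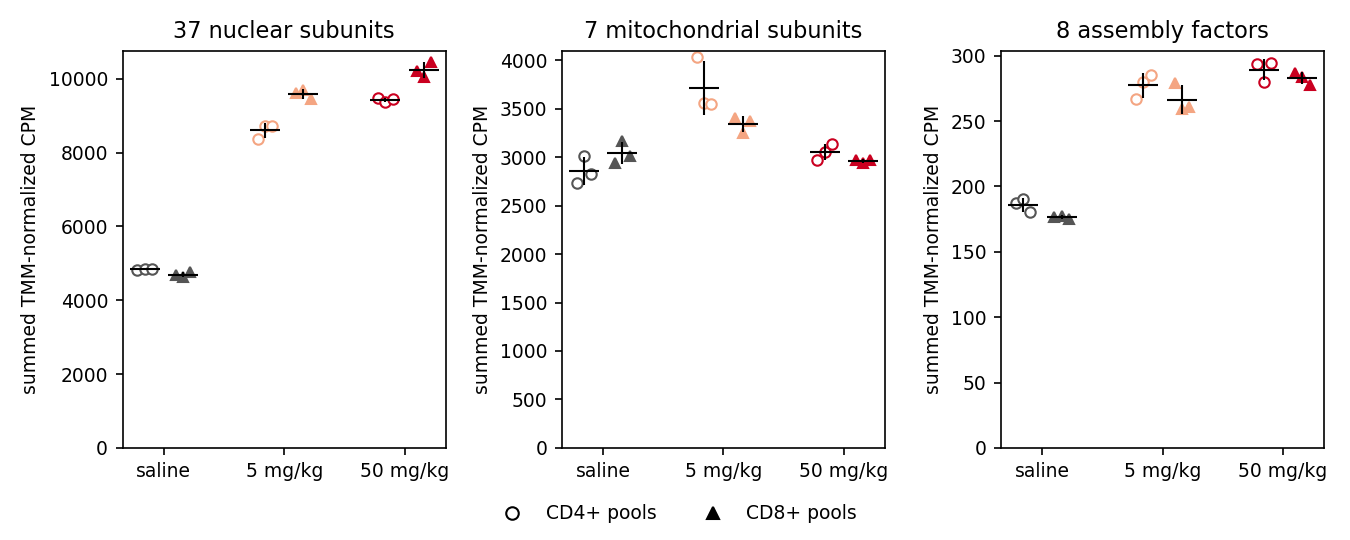
Summed TMM-normalized CPM per pool of the 37 nuclear subunits, the 7 mitochondrially encoded subunits and the 8 assembly factors, by group on the x axis, with open circles for CD4+ and triangles for CD8+ pools and a cross for the mean ± SD of 3 pools. The nuclear subunits lie between 4632 and 4841 CPM in saline pools and between 8355 and 10466 CPM in treated pools, while the mitochondrially encoded subunits do not keep that order.

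At the high dose, the 7 core subunits of the membrane arm that mitochondrial DNA encodes did not follow the nuclear subunits. Their sum was 2855 ± 142, 3714 ± 276 and 3058 ± 81.4 TMM-normalized CPM in CD4+ pools and 3043 ± 117, 3345 ± 82.3 and 2961 ± 17.5 in CD8+ pools. In CD4+ T cells 6 rose and 0 fell at the low dose, and 3 rose and 1 fell at the high dose. In CD8+ T cells 4 rose and 1 fell at the low dose, and 3 rose and 3 fell at the high dose. Over all genes, 26.1% and 34.7% were called higher and 25.6% and 35.8% lower in CD4+ T cells at these doses. In CD8+ T cells these shares were 29.9% and 37.1% higher and 30.3% and 36.9% lower. The counts of rises at the high dose were thus near the background in both lineages, as was the count of falls in CD8+ T cells. The calls depended on the scaling, since by library size alone 0 were higher and 6 lower in CD4+, and 0 higher and 7 lower in CD8+ T cells at the high dose. Lower calls were also the more frequent ones over all genes there, at 59% and 62.7%. Under TMM scaling mt-Nd3 rose by 1.15 at the low dose and by 0.52 at the high dose in CD4+ T cells, and mt-Nd6, the only complex I gene on the light strand of mitochondrial DNA, fell by 0.54 in CD4+ and by 0.78 in CD8+ T cells at the high dose. By library size alone, mt-Nd3 was at 0.08 in CD4+ and at -0.27 in CD8+ T cells at the high dose, and mt-Nd6 was at -0.98 and -1.31.

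Most nuclear genes of the other respiratory complexes also rose. All 9 genes measured of complex III, all 11 of complex IV and all 17 of complex V, the ATP synthase, rose in both lineages at both doses, and of the 8 listed for complex II, 6 or 7 did and Sdha, its flavin-binding subunit, fell, where 26.1% to 37.1% of all genes were called higher. When scaled by library size alone, all 11 genes of complex IV and 15 of 17 of complex V were higher, as were 6 to 8 of complex III and 2 to 4 of complex II, with 1 or 2 lower in complexes II, III and V, where 8.76% to 15.6% of all genes were called higher. Uqcrq of complex III rose at the high dose by 1.29 in CD4+ and 1.61 in CD8+ T cells, Cox7c of complex IV by 1.13 and 1.41, and Atp5l of complex V by 1.31 and 1.62. Of 8 further complex I assembly genes tested that lack the Nduf name, 3 rose and 0 fell in CD4+ T cells at the high dose. In CD8+ T cells 4 rose and 1 fell. Over all genes 34.7% and 37.1% were called higher and 35.8% and 36.9% lower, so that the CD4+ count of rises was near the background. By library size alone 2 of these assembly genes were higher and 4 lower in CD4+, and 2 higher and 3 lower in CD8+ T cells. With that scaling 15.1% and 15.6% of all genes were called higher and 59% and 62.7% lower. Dmac1 had the largest changes among these assembly genes, 0.81 and 1.10. Of 12 regulators of mitochondrial gene expression tested, 2 rose and 7 fell in CD4+ and 3 rose and 4 fell in CD8+ T cells at the high dose, where 34.7% and 37.1% of all genes were called higher and 35.8% and 36.9% lower, so that the CD8+ counts were near the background. With library size alone as the scale, 0 were higher in either lineage and 9 and 8 were lower. Gabpa, a subunit of the ETS-family factor NRF2/GABP, fell by 0.90 and 1.11, and Pprc1, a coactivator, fell by 0.85 and 0.82. Esrra, the nuclear receptor ERR-alpha, rose by 0.41 and 0.54 under TMM scaling, and was at -0.02 and 0.01 by library size alone.

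The letters of binding motifs known for such regulators were searched on both strands of the RefSeq promoter windows, 250 bases before to 50 after each start site (GRCm38.p6), which 40 of the 45 members had. AAGATGGC, the core of the YY1 motif, was in the windows of 8 members (20%), against 3.19% of 27025 genes and 5.91% of the genes tested here. GCATGCGC, the core of the NRF1 motif, was in 5 members (12.5%), against 3.05% and 6.52%. CCGGAAG, the ETS core, was in 6 members (15%), against 9.93% and 22.6%, and TCAAGGTCA, the ERR core, was in 0 members, against 0.466% and 0.377%. These are matches of letters and not sites of binding. The windows below run 5′ to 3′ on the strand of the gene, with the motif in capitals. They are shown for the pair of subunits lower at the high than at the low dose (Ndufa3 and Ndufc1) and for a core subunit (Ndufs7). Windows are also given for the assembly factor that rose most (Ndufaf8) and for a pair of accessory subunits with the NRF1 core (Ndufa6 and Ndufa8).
Ndufa3, YY1 core, chr7:3617384-3617413, plus strand: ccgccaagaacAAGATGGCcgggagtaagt
Ndufc1, YY1 core, chr3:51408915-51408944, minus strand: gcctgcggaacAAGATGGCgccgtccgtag
Ndufs7, YY1 core, chr10:80249462-80249491, plus strand: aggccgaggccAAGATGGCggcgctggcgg
Ndufaf8, YY1 core, chr11:120098933-120098962, plus strand: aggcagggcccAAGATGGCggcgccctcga
Ndufa6, NRF1 core, chr15:82354356-82354385, minus strand: tccgcggtagaGCATGCGCattgcagagcc
Ndufa8, NRF1 core, chr2:36049328-36049357, minus strand: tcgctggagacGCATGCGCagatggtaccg
In the first 4 of these the motif lay 11 to 25 bases after the start site, and in Ndufa6 and Ndufa8 it lay 83 and 8 bases before it. The genes shown rose at the high dose under TMM scaling, as did 43 of all 45 members in CD4+ and 42 in CD8+ T cells. Their rise thus does not set them apart, and a link between motif and change was not tested. Yy1 itself was at -0.22 in CD4+ and -0.06 in CD8+ T cells at the high dose, of which the first passed the test.

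Transcript length moved with the change over all genes. At the high dose in CD4+ T cells, the median log2 change was 0.75 for 824 genes with transcripts under 1000 nucleotides (GENCODE principal transcripts), 0.44 for 2301 genes of 1000 to 2000, -0.05 for 4165 genes of 2000 to 4000 and -0.60 for 2883 longer genes. In CD8+ T cells these medians were 0.93, 0.48, -0.06 and -0.66. Complex I genes are short. The 23 subunits under 1000 nucleotides all rose, with medians of 1.04 in CD4+ and 1.26 in CD8+ T cells, against 75.5% and 78.5% called higher of all genes of that length. The 10 subunits of 1000 to 2000 nucleotides also all rose, with medians of 0.84 and 0.96, against 65.0% and 68.8%. Of the 4 subunits of 2000 to 4000 nucleotides, 75% rose, against 27.5% and 28.9%, and the one that did not was Ndufs1, at 2625.5 nucleotides. The 8 assembly factors, which had lower medians, ranged from 678 nucleotides for Ndufaf2 to 3632 for Ndufaf4. The part of length in the changes was not tested.

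**Figure D3:**
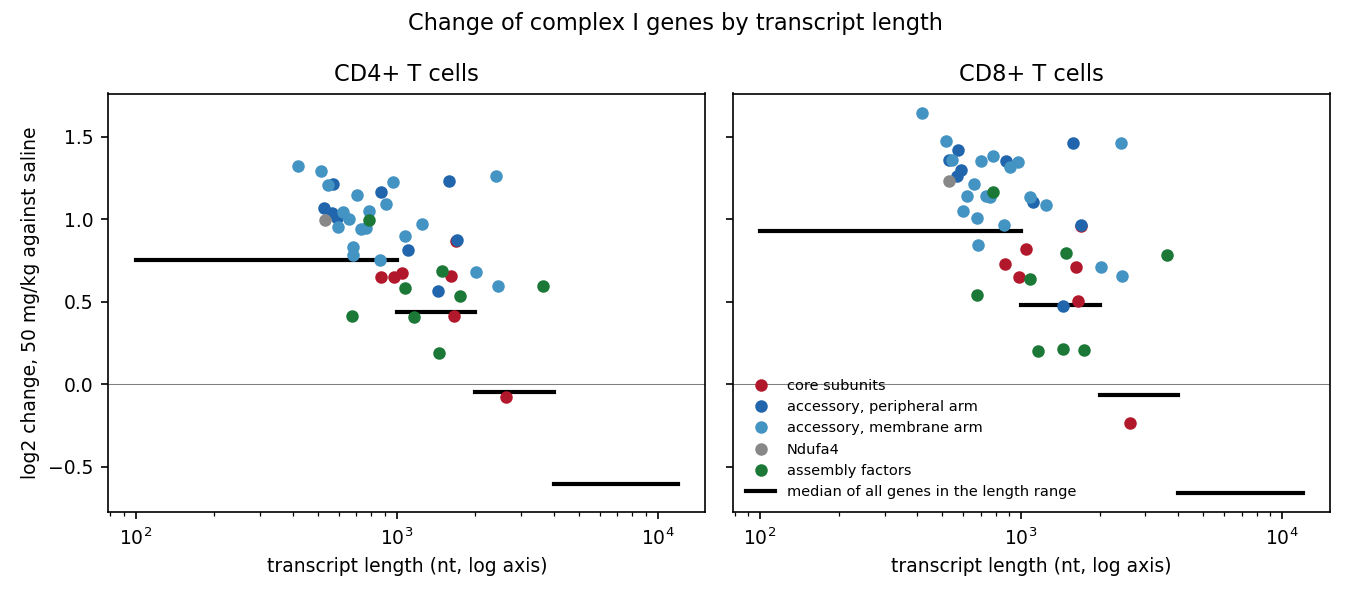
The log2 change at the high dose against transcript length in nucleotides (log axis) for the 45 complex I genes, coloured by role, in CD4+ and CD8+ T cells, with black bars for the median of all genes in each length range. Most subunits lie above the bar of their length range, and Ndufs1 lies just below its bar in both lineages.

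To see where these transcripts were found, levels were compared among the clusters of the authors' table. They are given as a share of the UMIs of each cluster and pool with at least 10 cells. The CD8+ cluster numbers, 1 to 9, are those of that table and were not matched to the cluster numbers used in the paper. These levels are a description, since clusters and levels come from the same counts. In CD4+ T cells the mean over pools was highest in cluster 3, at 8584 CPM, and lowest in cluster 6, at 4454 CPM, a ratio of 1.93. In CD8+ T cells it was highest in cluster 1, at 8626 CPM, and lowest in cluster 3, at 4578 CPM, a ratio of 1.88. With TMM scaling these ratios were 2.68 and 2.70. In saline pools only, cluster 3 was again highest in CD4+ T cells, at 7892 CPM, but cluster 9 was highest in CD8+ T cells, at 7833 CPM, with ratios to clusters 6 and 3 of 1.83 and 1.77. No high-dose pool had enough cells of CD8+ cluster 3 to be counted. CD4+ cluster 6 and CD8+ cluster 3 also had the highest summed cycling markers, 7077 and 7114 CPM, yet CD4+ cluster 3, with 4794 CPM of cycling markers, had the highest subunit level.

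Single members departed from that order. Of the subunits in CD8+ saline pools, Ndufa1 was lowest in cluster 3, at 69.3 CPM, and highest in cluster 9, at 219 CPM. Ndufs1 had its highest level, 92.3 CPM, in that same cluster 3 and its lowest, 28.9 CPM, in cluster 6. Ndufv1 was also highest in cluster 3, at 121 CPM. The summed level of the assembly factors with saline was highest in cluster 7 in CD4+ T cells, at 362 ± 38.0 CPM. Clusters 6 and 7 of CD8+ T cells were nearly equal, at 279.6 and 279.2 CPM, with an SD of 50.0 CPM in cluster 7. Over the pools of all groups, CD4+ cluster 7 had 378 ± 29.1 CPM, and the other CD4+ clusters had 182 to 262 CPM. Not all factors shared this place, since with saline Ndufaf4, Ndufaf5, Ndufaf6 and Ndufaf7 were highest in CD4+ cluster 7, and Ndufaf3, Ndufaf4 and Ndufaf7 in CD8+ cluster 7. Ndufaf4, with 112 CPM in CD4+ cluster 7 and 67.1 CPM in CD8+ cluster 7, was highest there in each lineage.

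**Figure D4:**
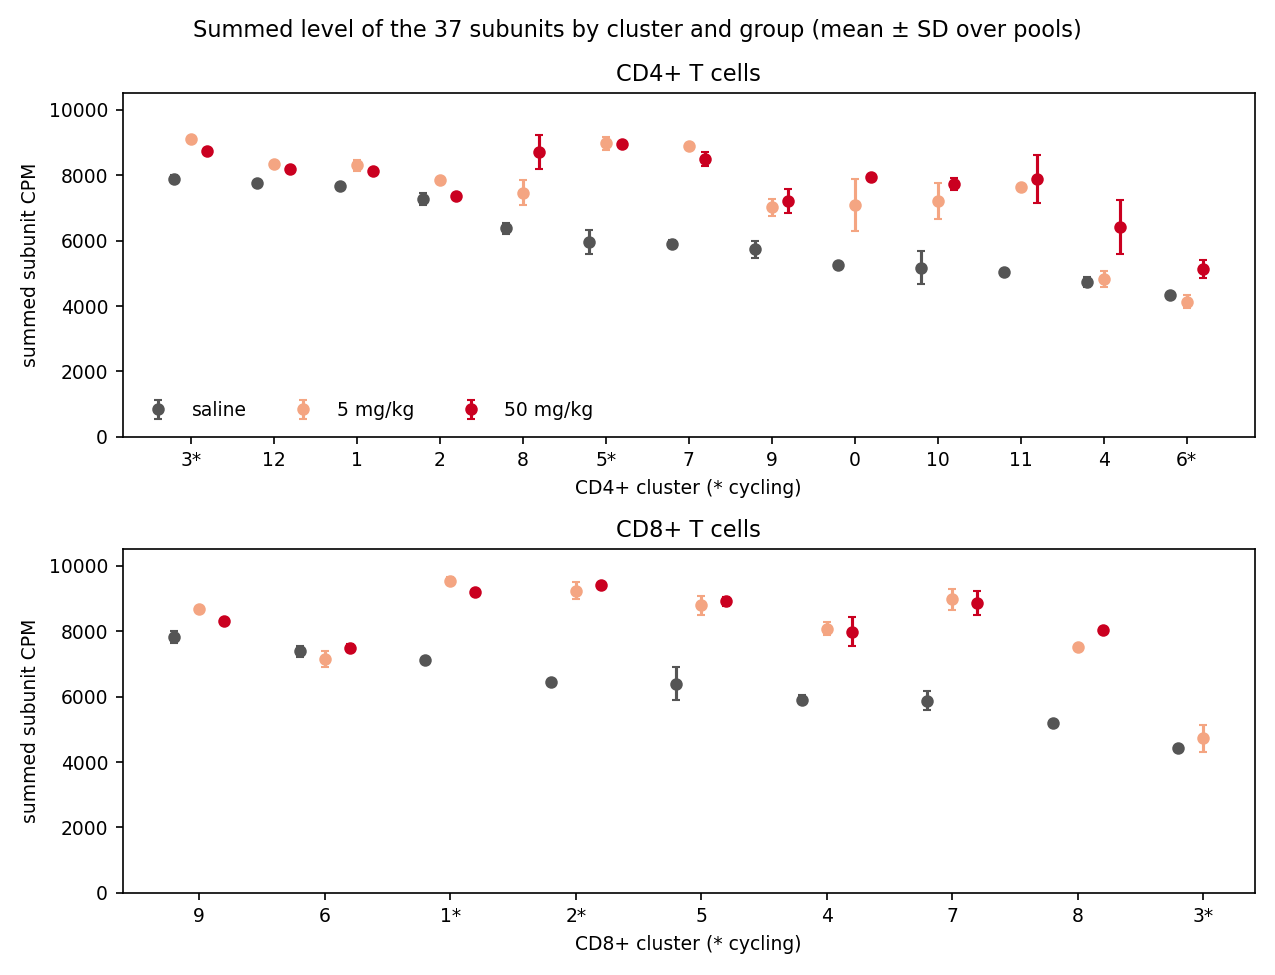
Summed CPM of the 37 subunits, as a share of UMIs, in each CD4+ (top) and CD8+ (bottom) cluster, as mean ± SD over the pools with at least 10 cells (grey, saline; orange, 5 mg/kg; red, 50 mg/kg), ordered by the saline level; asterisks mark clusters high in cycling genes. Clusters with low saline levels such as CD4+ cluster 0 and CD8+ cluster 8 lie much higher in treated pools, while CD8+ cluster 6 does not.

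Within single clusters, the change at the high dose was tested in those with at least 30 cells in every pool. In CD4+ T cells, 35 subunits rose in cluster 0 (26.6% of all genes called higher), 34 in cluster 5 (26.6%) and 31 in cluster 7 (18.2%), with median log2 changes of 1.04, 0.99 and 0.86. In cluster 1, 13 subunits rose (9.38%), in cluster 2, 8 (11.6%), and in cluster 3, 16 (8.89%), with medians of 0.22, 0.13 and 0.26. In cluster 2, Ndufab1, the acyl carrier protein, fell by 0.43 (11% of all genes called lower), and by library size alone 6 subunits were higher (6.19%) and 3 lower (18%) there, with a median of -0.04. The count for cluster 1 was 8 without saline replicate 2, 6 without saline replicate 3, 8 without CSA 50 mg/kg replicate 3, and 3 by library size alone (5.36%). The differences between clusters were not tested. Ndufa1 rose by 1.59 ± 0.12 in cluster 0 and by 0.36 ± 0.10 in cluster 1, and Ndufv3 rose by 1.46 in cluster 0, while in cluster 2 it was at 0.15 (adjusted p = 0.386, edgeR).

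In CD8+ T cells, 36 subunits rose in cluster 1 (27.2% of all genes called higher), 36 in cluster 2 (29%) and 36 in cluster 8 (28.1%), with median log2 changes of 0.71, 0.99 and 1.21. In cluster 9, 19 rose (13.4%), with a median of 0.30, and by library size alone 2 did (5.51%). In cluster 6, 0 of the 36 subunits tested passed in either direction, with 1.25% of all genes called higher, and the median was 0.04. At an unadjusted p under 0.05, 0 were higher and 2 lower there by edgeR, and DESeq2 called 0. Cluster 6 held the highest sum of naive T cell markers among the CD8+ clusters, 1489 CPM, and had 35 to 59 cells in each pool. Its summed subunit level was 7387 ± 165 CPM with saline, 7143 ± 250 at the low dose and 7484 ± 128 at the high dose. Cluster 8, in contrast, went from 5206 ± 82.8 to 7526 ± 38.4 and 8031 ± 89.6 CPM. Ndufa1 rose by 1.72 ± 0.10 in cluster 8 and by 0.60 ± 0.09 in cluster 9, and was at 0.07 ± 0.21 in cluster 6 (adjusted p = 0.942, edgeR). Ndufs1 passed in none of the 10 clusters of both lineages where it was tested, with values of -0.36 to 0.12.

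The share of each cluster also differed between groups, taken here as its share of the UMIs of a pool and not of its cells. These UMI shares of the treated pools were combined with the saline level of each cluster. The summed subunit level would then have been 6749 ± 13.9 CPM at the low dose and 6825 ± 40.2 CPM at the high dose in CD4+ T cells. There 8066 and 8362 CPM were observed, and saline pools had 5814 CPM. In CD8+ T cells these values were 6812 ± 19.1 and 6801 ± 52.6 CPM, with 8904 and 8841 CPM observed and 5854 CPM in saline pools. The observed level lay above these values in both lineages at both doses. Clusters and levels come from the same counts, and the part of the cluster shares in the change was not tested.

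The change in CD8+ was compared with that in CD4+ T cells in 1 fit of 18 sums, with pool as a block. The rise was larger in CD8+ than in CD4+ T cells for 13 subunits at the low dose (2.12% of all genes called higher, 1.54% lower) and for 14 at the high dose (9.33% higher, 10.4% lower), and smaller for 0 at either dose. By edgeR 0 were smaller at an unadjusted p under 0.05 as well, and DESeq2 called 13 and 5 larger and 0 smaller. At the low dose, Ndufb9 had the largest difference, 0.34 ± 0.08 (adjusted p = 0.013, edgeR), followed by Ndufv3 (0.29), Ndufa12 (0.28), Ndufa4 (0.27) and Ndufs6 (0.27). Ndufc1 was the largest at the high dose, at 0.30 ± 0.07 (adjusted p = 0.0033, edgeR), followed by Ndufa1 (0.30), Ndufa6 (0.27), Ndufa12 (0.27) and Ndufa7 (0.26). For the core subunits and the assembly factors no difference passed, and among assembly factors edgeR had 0 larger and 1 smaller at an unadjusted p under 0.05 at each dose, while DESeq2 called 0. The count at the low dose was 5, 3 and 5 without saline replicates 1, 2 and 3 in turn, and 6 and 4 without CSA 5 mg/kg replicates 1 and 2. At the high dose it was 8 without saline replicate 2. Outside the cycling clusters, 0 subunits passed at either dose, with 5 and 4 larger and 0 smaller at an unadjusted p under 0.05 and median differences of 0.07 and 0.07.

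**Figure D5:**
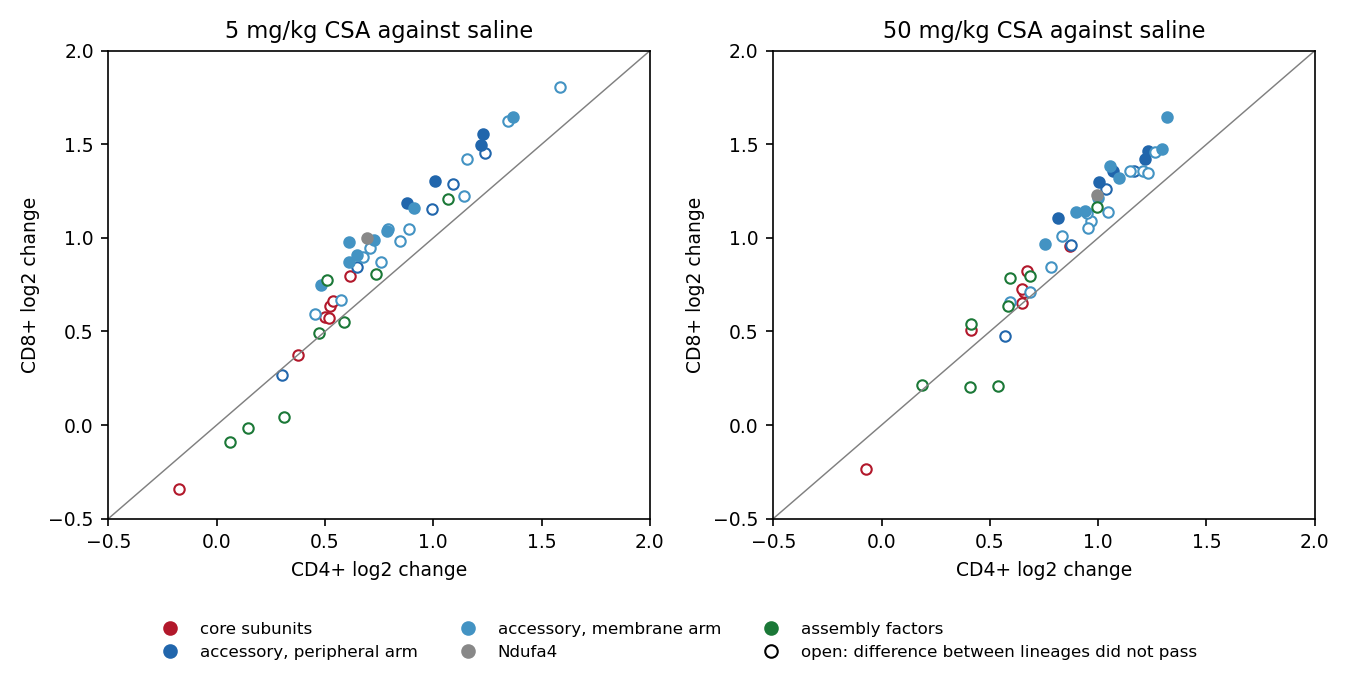
The log2 change in CD8+ (y axis) against CD4+ T cells (x axis) for each complex I gene at the low dose (left) and 50 mg/kg (right), coloured by role, with filled points where the difference between lineages passed the test and a grey line of equal change. The 13 and 14 filled points lie above the line.

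In saline pools, 9 subunits were higher and 2 lower in CD8+ than in CD4+ T cells, where 21.5% of all genes were called higher and 18.9% lower. The count of higher subunits was near the background, and the median difference was 0.01 for the subunits and 0.01 over all genes. Higher members included the core subunits Ndufv1 (0.29 ± 0.06, adjusted p = 0.00017, edgeR), Ndufs1 (0.24 ± 0.06, adjusted p = 0.0035), Ndufs8 and Ndufs7, and the lower pair was Ndufa3 and Ndufc1, by -0.15 and -0.17. Ndufaf7 was higher by 0.34 and Ndufaf4 lower by -0.33. The count of 9 was 5 without saline replicate 2, 3 with DESeq2 and 5 outside the cycling clusters.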

How the data were processed

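Splenic donor T cells of 3 groups (saline, CSA at 5 or 50 mg/kg) were profiled in 9 pools by 10x 5′ single-cell RNA sequencing. The deposited counts are raw UMI counts per gene and cell, which the authors made with Cell Ranger on mm10 and filtered to the cells kept (per the labels, Seurat 3.0.0 was also used). The summed counts equalled the UMI total of the authors' table in each of the 21204 cells. The deposited fraction of UMIs from mitochondrial genes in each cell served only to describe RNA quality, as a percent. The treatment, pool, cluster and TEa mark of each cell were read from the authors' tables. No cell left in these tables was marked as a doublet or as dead, and no doublet caller was run here.

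UMIs were summed per pool and lineage, and per cluster for clusters with at least 30 cells in every pool. The test was the quasi-likelihood test of edgeR 4.0.16 in R 4.3.3, for genes passing filterByExpr, with TMM scaling, all 9 pools in 1 fit, Benjamini-Hochberg adjustment over all genes tested and a threshold of 0.05. Whether CD8+ and CD4+ changes differed was tested as an interaction of lineage and group, blocked by pool. Means are given with SD over 3 pools, except where the pools of all groups are named, and log2 changes with SE. The share in CPM is without TMM scaling. Gene positions and transcript lengths came from GENCODE vM21 and promoters from RefSeq. Whether the counting used strand is not given in the sources used here, and 6 members share bases with another gene on their own strand. The procedure was checked on simulated data in which few genes changed. That check does not cover the choice of scaling where many genes change, as here.

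Single values of some genes are not reported here, though the counts and sums include them. Named genes were the other core subunits, the assembly factors, the 5 largest changes per lineage and dose with a mean of at least 50 CPM, members that moved against their class, the 5 largest differences between lineages, and up to 2 genes per pathway list. Esrra and Yy1 were added after their values were seen, as factors of the motifs searched, as were Ndufa9, Ndufab1 and Sdha, for a call or sign that went otherwise. The members and lists were chosen with earlier results of these data known. Alternatives were DESeq2 1.42.0, no filter, scaling by library size alone, only the groups compared, a block for the pool number, cells outside the cycling clusters, TEa cells included, cells of at least 2000 or of 4000 to 8000 UMIs, UMIs per cell, and leaving out each pool. Library size for the mitochondrially encoded subunits, the other assembly genes, complexes II to V and the regulators was added after the data were seen. Same-numbered pools of different groups did not deviate together (correlations of -0.085 to 0.071 over the genes tested), so their numbers do not pair them.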

Additional observations from a re-analysis of the deposited data

Results flagged for a closer look

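The change with CSA differed between CD8+ and CD4+ T cells for the following subunits, by edgeR's test of the interaction in all 9 pools, and each was larger in CD8+ T cells. At the low dose the difference on the log2 scale was 0.34 for Ndufb9, 0.29 for Ndufv3, 0.28 for Ndufa12, 0.27 for Ndufa4 and Ndufs6, and 0.24 for Ndufa1, Ndufa2 and Ndufa8. It was 0.23 for Ndufb5, Ndufb8 and Ndufb11, and 0.22 for Ndufa11 and Ndufb7. At the high dose it was 0.30 for Ndufa1 and Ndufc1, 0.27 for Ndufa6 and Ndufa12, and 0.26 for Ndufa7. Ndufa4, Ndufb5 and Ndufv3 had 0.21, Ndufb11 had 0.20, Ndufb6 and Ndufa8 had 0.19, Ndufa2 and Ndufb10 had 0.18, and Ndufa3 had 0.16. Outside the cycling clusters none of these passed, with medians over the subunits of 0.07 and 0.07.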

How the results depend on the processing

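The counts of subunits that rose against saline were 36 in both lineages at both doses when any 1 pool was left out, and stayed within 1.5 times of that under every alternative run. Leaving out 1 pool gave 5 to 6 and 6 to 7 assembly factors higher in CD4+ and 5 to 5 and 5 to 6 in CD8+ T cells at the low and high dose. Between doses it gave 17 to 19 subunits higher and 2 to 2 lower in CD4+, and 10 to 16 higher and 2 to 3 lower in CD8+ T cells. For the difference between lineages it gave 3 to 16 subunits at the low dose, 8 to 15 at the high dose and 5 to 9 in saline pools. Within clusters it gave 34 to 35, 6 to 15, 7 to 9, 13 to 16, 34 to 35 and 30 to 32 subunits higher in CD4+ clusters 0, 1, 2, 3, 5 and 7, and 35 to 36, 36 to 36, 0 to 0, 35 to 36 and 14 to 20 in CD8+ clusters 1, 2, 6, 8 and 9. A block for the pool number (replicate block) left all 12 counts by dose as they were, with 36 and 36 subunits and 6 and 7 assembly factors higher in CD4+, and 36 and 36 and 5 and 6 in CD8+ T cells.

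By library size alone, 2 and 2 assembly factors were higher (1 and 1 lower) in CD4+ and 3 and 3 (3 and 3 lower) in CD8+ T cells. Between doses 4 subunits were lower in CD4+, and 7 were higher and 8 lower in CD8+ T cells. The difference between lineages at the high dose held for 7 subunits, and 3, 10 and 2 rose in CD4+ clusters 1 and 3 and CD8+ cluster 9. Mitochondrially encoded subunits higher and lower were 2 and 2, then 0 and 6 in CD4+, and 1 and 6, then 0 and 7 in CD8+ T cells at the low and high dose. Higher and lower at these doses were, for complex II, 2 and 2, then 4 and 2 in CD4+, and 4 and 2, then 4 and 2 in CD8+ T cells, and for the biogenesis regulators 0 and 8, then 0 and 9, and 0 and 7, then 0 and 8. Lower were 1 and 1 of complex III in CD4+ and 2 and 1 in CD8+, and 2 and 1 of complex V in CD4+ and 2 and 2 in CD8+ T cells. The other complex I assembly genes were 0 and 3, then 2 and 4 in CD4+, and 1 and 2, then 2 and 3 in CD8+ T cells. These lists were run with this scaling after the data were seen. Single genes that changed sign by library size alone were, in CD4+ T cells, Ndufaf1 (-0.30 and -0.25), Ndufa9 and Ndufaf5 (-0.057 and -0.21 at the low dose), Ndufaf7 (-0.049 at the low dose), and Ndufaf2, Ndufaf5 and Ndufv1 (-0.028, -0.030 and -0.027 at the high dose), and in CD8+ T cells Ndufa9 (-0.16 and -0.054), Ndufaf7 (-0.38 and -0.32), Ndufv1 (-0.048 and -0.024), and Ndufaf1 and Ndufaf5 (-0.32 and -0.33 at the high dose).

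In cells of 4000 to 8000 UMIs, 3 assembly factors were higher in CD4+ T cells at the low dose and 8 subunits were higher between doses, and Ndufaf7 (low dose), Ndufaf2 and Ndufaf5 (high dose) turned to -0.070, -0.024 and -0.13 there. Outside the cycling clusters, 3 assembly factors were higher in CD8+ T cells at the low dose, Ndufaf5 turned to -0.075 at the high dose, and the difference between lineages held for 0, 0 and 5 subunits at the low dose, at the high dose and in saline pools. With DESeq2 that difference held for 5 subunits at the high dose and 3 in saline pools, and 5 and 11 rose in CD4+ cluster 1 and CD8+ cluster 9. The ratio of the highest to the lowest cluster was 2.68 in CD4+ and 2.70 in CD8+ T cells with TMM scaling. The summed subunits over saline, low and high dose, were 1.78 and 1.95 times in CD4+ and 2.04 and 2.18 times in CD8+ T cells with TMM scaling, 1.88, 2.65, 2.21 and 2.53 per cell, and 1.32, 1.35, 1.35 and 1.35 outside the cycling clusters. Apart from the scaling and the smaller sets of cells themselves, the cause of these moves was not tested. The counts of assembly factors rest on few UMIs, and TEa cells gave no separate value in CD8+ T cells, where none were marked.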
